A study of Mus musculus with 5 samples.

Results

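Cyclin-dependent kinases drive cells through the division cycle only when bound to a cyclin. D-type cyclins (Ccnd1, Ccnd2 and Ccnd3) are made in answer to growth signals and bind the kinases Cdk4 and Cdk6, which phosphorylate the pocket proteins RB, p107 and p130 and so free E2F transcription factors. E-type cyclins (Ccne1 and Ccne2), whose genes are textbook E2F targets, then bind Cdk2 to start DNA replication. In blood-forming stem and progenitor cells the D-type cyclins and Cdk4 and Cdk6 are known to be needed for expansion, and Cdk6 is known to govern how stem cells leave quiescence.

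Those 8 genes were followed on arrays of KLS cells, the c-Kit+, lineage-negative, Sca-1+ fraction of mouse blood-forming cells that holds stem cells and multipotent progenitors. Every probe set annotated with a member as its only gene symbol was taken, which gave 24 of 45037 probe sets and 8 of 18193 genes: 13 probe sets for D-type cyclins, 3 for E-type cyclins and 8 for the kinases. Ccnd2 had 7 probe sets, Ccne2 had 1, and the others had 2 or 3. The Rb family deficient group (3 arrays) had the genotype Rb -/- p130 -/- p107-/-, and the group titled Wild Type (2 arrays) had Rb +/+ p130 +/+ p107+/-, so the wild-type arrays also lacked 1 copy of p107. Both groups carry the same remark on timing, with recombination at 6 weeks of age by Mx1-Cre, a recombinase driven by an interferon-responsive promoter that is active beyond blood cells, and sorting 2 months later. Whether the wild-type mice carried Cre, and whether an array holds 1 animal or a pool, is not stated in the labels. The spread behind each p-value is therefore that between arrays, and may be technical. Of 6 arrays hybridised, the study left out 1 for its background and control probe sets. In RNA from sorted cells, fewer cells of a type and less RNA per cell cannot be told apart.

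Values are log2 of the deposited RMA intensity, and differences are deficient minus wild type. Each probe set has its own brightness per transcript, so levels are compared only within a probe set. The median probe set read 4.71 to 4.74 on the 5 arrays, and below about that level differences are compressed by RMA. Some arrays stand apart in ways the groups do not explain. Deficient 2 read 12.45 for Xist and 3.50 for the Y-linked gene Eif2s3y, wild type 2 read 10.67 and 9.81, and the other 3 arrays read 5.09 to 6.12 for Xist and 9.81 to 10.37 for Eif2s3y. Wild type 2 was thus the only array high both for Xist and for Y-linked genes (Kdm5d 6.70 and Uty 5.86 as well). Whether it holds RNA of several animals was not tested. Of the deleted genes, Rbl1 (p107) read 4.25 to 5.15 in deficient cells and 7.16 and 8.33 in wild type, while the ranges of Rb1 and Rbl2 (p130) overlapped between the groups; whether these probes lie in the deleted parts is not given in the sources used here. Of the genes behind the sort, Kit read 10.83 to 11.25 over all arrays, and Ly6a (Sca-1) was not analysed here because no probe set names it alone.

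Promoter sequence was read for the kinases, because 1 of them changed between the groups and the others did not pass the test. The 250 bases before the start of Cdk6, Cdk4 and Cdk2 are given 5′ to 3′ on the strand of the gene, from RefSeq on GRCm38.p6, at chr5:3343643-3343892 (plus strand), chr10:127063285-127063534 (plus strand) and chr10:128705052-128705301 (minus strand). Capitals mark the E2F sequences TTTCCCGC, TTTGGCGC, TTTCGCGC and TTTGCCGC on either strand, and CACGTG, the palindromic E-box bound by MYC and other factors, which was added after the sequences were seen; no matches overlapped.
Cdk6: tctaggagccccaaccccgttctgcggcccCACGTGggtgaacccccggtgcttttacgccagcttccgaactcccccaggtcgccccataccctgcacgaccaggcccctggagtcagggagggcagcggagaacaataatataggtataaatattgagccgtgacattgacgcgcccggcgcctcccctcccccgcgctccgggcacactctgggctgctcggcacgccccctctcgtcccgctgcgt
Cdk4: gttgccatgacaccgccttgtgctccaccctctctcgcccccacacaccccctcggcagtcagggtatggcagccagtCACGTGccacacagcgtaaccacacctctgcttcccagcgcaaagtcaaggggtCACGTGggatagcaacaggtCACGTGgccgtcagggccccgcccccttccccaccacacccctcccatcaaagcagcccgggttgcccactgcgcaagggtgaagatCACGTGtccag
Cdk2: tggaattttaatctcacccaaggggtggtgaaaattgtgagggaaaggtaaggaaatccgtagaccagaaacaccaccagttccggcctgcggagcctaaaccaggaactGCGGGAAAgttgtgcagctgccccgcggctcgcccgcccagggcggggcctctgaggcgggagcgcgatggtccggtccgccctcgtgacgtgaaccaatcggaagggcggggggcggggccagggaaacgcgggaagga
Cdk6 held 1 CACGTG and no E2F sequence in this window. Cdk4 held 4 CACGTG, and Cdk2 held 1 E2F sequence, TTTCCCGC on the other strand, 140 to 133 bases before the start. Of all 32851 promoters in the RefSeq table, 1.86% held at least 1 of the E2F sequences in the same window. CACGTG was held by 6.02%, and at least 4 times by 0.0213%. Because CACGTG was picked after these sequences were seen, and the cut of 4 matches Cdk4, its shares do not test rarity. The table also gave promoters for Ccnd3 (at 2 starts) and Ccne1, without a match to either motif. Ccnd1, Ccnd2 and Ccne2 were not searched. A match is a description of the letters and says nothing on binding.

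Cdk6 was the member that rose. Its brightest probe set (1435338_at) read intensities of 8261, 8033 and 8494 in deficient cells, against 4298 and 4147 in wild type, which is 1.96-fold. On the log2 scale it averaged 13.01 ± 0.04 in deficient cells and 12.04 ± 0.04 in wild type (SD, n = 3 and 2), a difference of 0.97 (SE 0.10, limma adjusted p = 0.0337 over all probe sets). The groups lay far apart relative to the spread within each, with the deficient arrays covering a range of 0.08. A second probe set (1455287_at) read 12.60, 12.75 and 12.76 in deficient cells, against 11.82 and 11.58 in wild type (difference 1.00, SE 0.13, adjusted p = 0.0470). The third (1460291_at) lay near the median of the array, at 5.15, 5.80 and 5.36 in deficient cells and 4.55 and 4.98 in wild type, and did not pass (difference 0.67, SE 0.23, adjusted p = 0.269). All 3 therefore had every deficient array above both wild-type arrays, and the 2 brighter ones gave the same size of difference.

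These were the 2 called among 24 member probe sets (8.33%), where 0.491% of all probe sets were called (0.164% higher and 0.326% lower in deficient cells); since both are of Cdk6, they count as 1 gene. With 1 probe set per gene, 1 of the 8 members passed (Cdk6, adjusted p = 0.0173), against 2.24% of all genes. At an unadjusted p under 0.05, 5 of 24 member probe sets passed (20.8%, against 14.1% of all): the 3 of Cdk6 higher (background 7.28%) and 2 dim ones of Ccnd2 lower (background 6.82%). With 1 probe set per gene that count was 1 of 8, against 18.7% of all genes. The call needed all 5 arrays: leaving out any 1 of them kept the difference of the brightest probe set between 0.94 and 0.99 but moved the adjusted p to between 0.0994 and 0.118 (0.0557 to 0.0736 with 1 probe set per gene), and the second probe set was likewise lost. The value without deficient 2, high in Xist and low in Eif2s3y, was 0.99. Without wild type 2, the other array high in Xist, it was 0.94. No fit left out both.

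**Figure D1:**
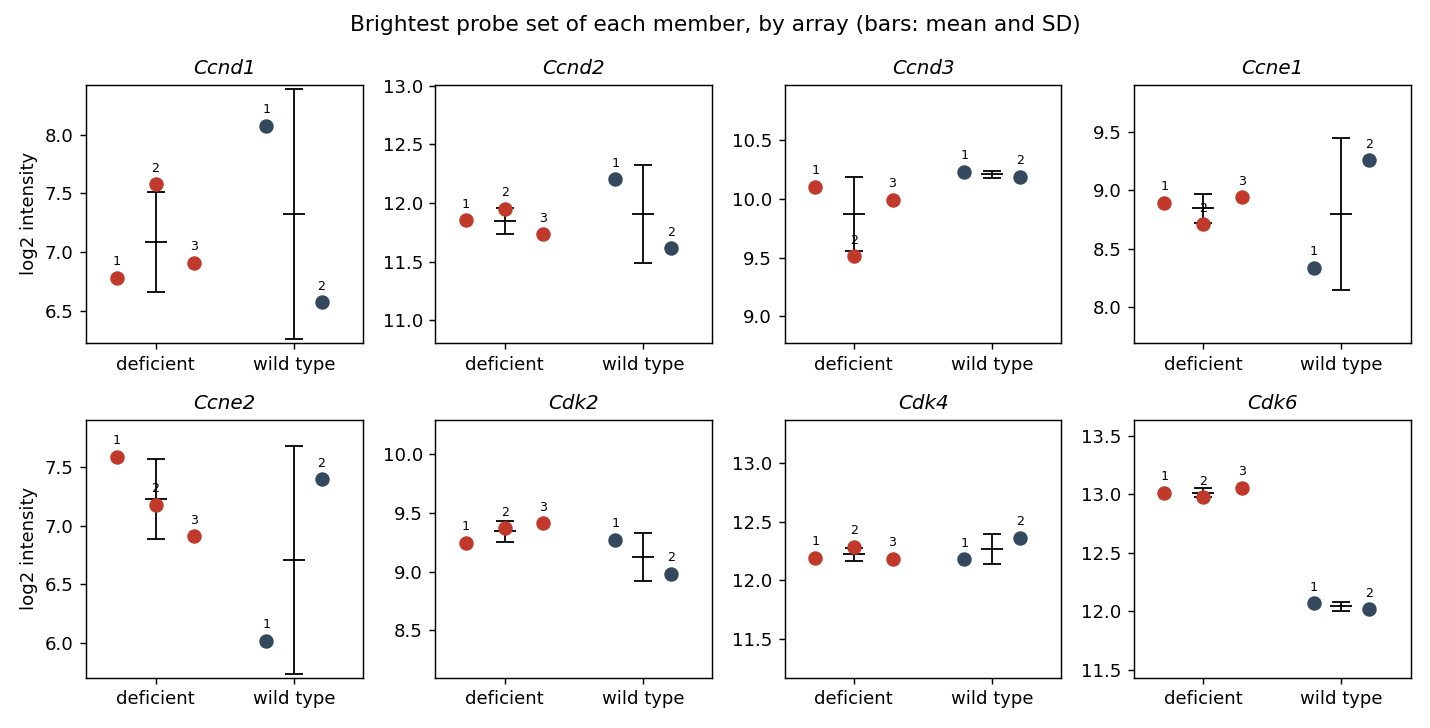
Log2 intensity of the brightest probe set of each of the 8 genes, with 1 point per array (numbers are replicate numbers), deficient left of wild type; bars show mean and SD, and the axes of all panels span the same number of log2 units. Cdk6 separates the groups (13.01 against 12.04 on average), while every other gene but Ccnd3 differs more between the wild-type arrays than between the group means.

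Cdk4, the close relative that binds the same D-type cyclins, did not pass on any of its 3 probe sets. The brightest (1422441_x_at) read 12.19, 12.29 and 12.18 in deficient cells, against 12.18 and 12.36 in wild type, and the groups overlapped. The difference was -0.05 (SE 0.11), with a 95% interval of -0.33 to 0.23 that lies below the interval of 0.72 to 1.21 for Cdk6. The other Cdk4 probe sets differed by -0.08 and 0.09. Cdk2, the partner of E-type cyclins, read 9.25, 9.37 and 9.41 in deficient cells, against 9.27 and 8.98 in wild type (1416873_a_at). Its groups overlapped and the difference of 0.22 did not pass (SE 0.13, 95% interval -0.11 to 0.54, adjusted p = 0.560). The other Cdk2 probe set (1447617_at) read below the array median on every array, between 3.06 and 3.22, and carries little information.

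Cdk6 and its relatives were also set against each other within each array, where the scaling between arrays cancels. The probe sets differ in brightness, so only the change of such a value between groups can be read. Cdk6 minus Cdk4 was 0.82, 0.69 and 0.87 in deficient cells, against -0.11 and -0.34 in wild type, a change of 1.02. Cdk6 minus Cdk2 changed by 0.75. Each gave the smallest p that 3 arrays against 2 allow (exact permutation test, two-sided p = 0.1; 0.25 adjusted over the 5 pairs compared), so the design cannot reach 0.05 here. The other 3 pairs, within the cyclins, had an exact p between 0.3 and 0.9, with changes of 0.18 for Ccnd2 minus Ccnd1, -0.10 for Ccnd3 minus Ccnd1 and 0.47 for Ccne2 minus Ccne1.

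Of the 13 D-type cyclin probe sets, 0 passed the threshold by limma, with 2 of Ccnd2 at an unadjusted p under 0.05. Ccnd1, on its brightest probe set (1417420_at), read 6.78, 7.58 and 6.91 in deficient cells, against 8.08 and 6.57 in wild type (difference -0.24, SE 0.47, 95% interval -1.39 to 0.91, adjusted p = 0.897). Its wild-type arrays were the highest and the lowest of the 5. Another Ccnd1 probe set (1448698_at) read 6.80, 6.99 and 6.16 in deficient cells, against 8.54 and 7.01 in wild type, so the groups did not overlap, although by little; the difference of -1.13 did not pass (SE 0.48, adjusted p = 0.375). The third differed by -0.40 with overlapping groups.

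Ccnd2 read 11.85, 11.95 and 11.73 in deficient cells, against 12.20 and 11.61 in wild type, on its brightest probe set (1455956_x_at; difference -0.06, SE 0.19, 95% interval -0.53 to 0.41, adjusted p = 0.938). Here too the wild-type arrays enclosed the deficient ones. All 7 Ccnd2 probe sets had lower means in deficient cells, by 0.06 to 0.52. The 3 brightest, which read above 11 on every array, differed by -0.06, -0.09 and -0.19 with overlapping groups. The 4 dimmer ones differed by -0.39 to -0.52, each with all deficient arrays below both wild-type arrays, and none passed (adjusted p from 0.269 to 0.387). Probe sets of 1 gene measure the same RNA and are not replicates.

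Ccnd3 read 10.10, 9.51 and 9.99 in deficient cells, against 10.23 and 10.19 in wild type (1415907_at; difference -0.34, SE 0.19, 95% interval -0.81 to 0.13, adjusted p = 0.527). Every deficient array was below both wild-type arrays, with deficient 2 the lowest; without deficient 2 the difference was -0.16. The other 2 Ccnd3 probe sets differed the other way, by 0.44 and 0.16, so the sign depends on the probe set.

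Neither E-type cyclin passed by limma, and 0 of their 3 probe sets had an unadjusted p under 0.05. Ccne1 read 8.89, 8.71 and 8.94 in deficient cells, against 8.34 and 9.26 in wild type (1441910_x_at; difference 0.05, SE 0.27, 95% interval -0.61 to 0.71, adjusted p = 0.967), and its other probe set differed by 0.09. Ccne2, on its only probe set (1422535_at), read 7.59, 7.18 and 6.91 in deficient cells, against 6.02 and 7.39 in wild type (difference 0.52, SE 0.42, 95% interval -0.51 to 1.54, adjusted p = 0.685). For both genes the lowest of the 5 arrays was wild type 1. The interval of Ccnd1 (-1.39 to 0.91) reaches a fall, and that of Ccne2 a rise, of more than 1 log2 unit. Changes of that size in those directions were therefore not excluded at this number of arrays.

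**Figure D2:**
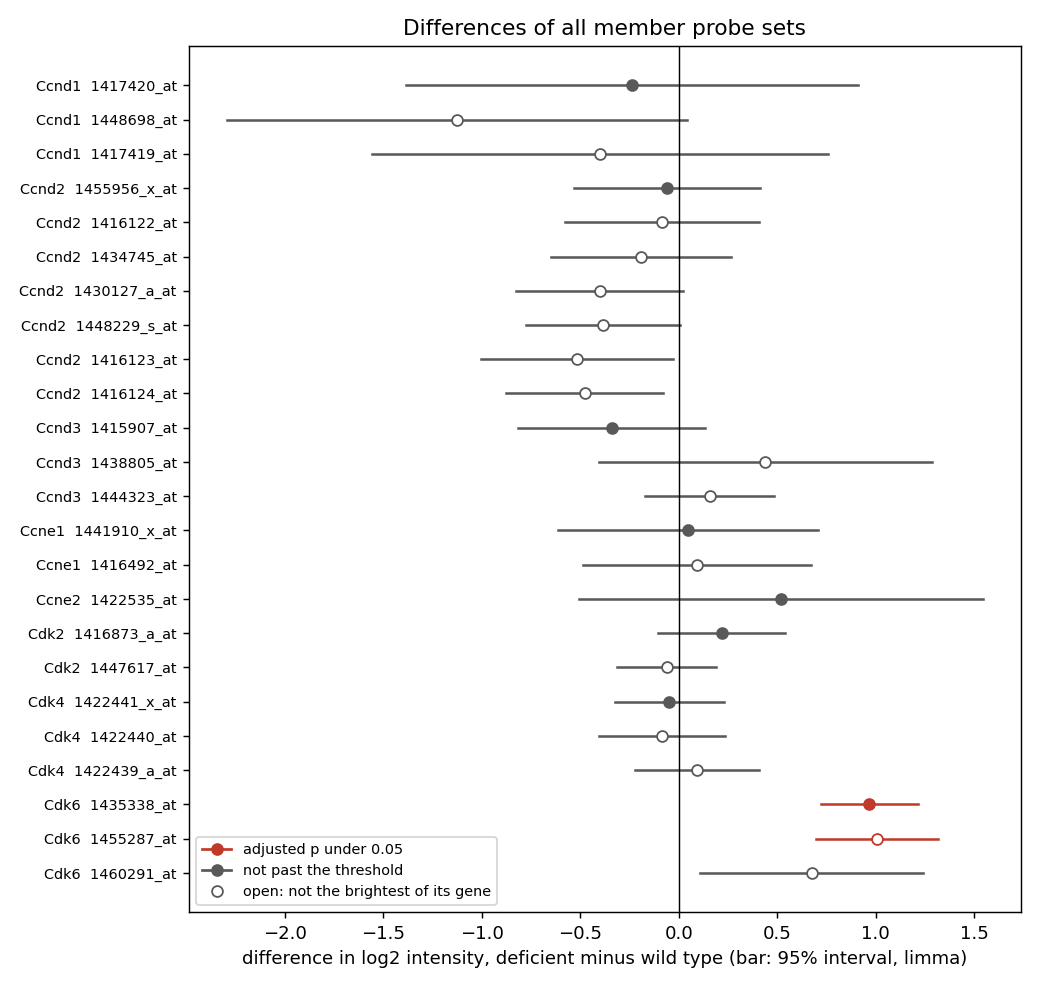
Difference in log2 intensity, deficient minus wild type, of all 24 member probe sets with 95% intervals from limma; filled points are the brightest probe set of a gene and red marks an adjusted p under 0.05. The 2 bright Cdk6 probe sets (0.97 and 1.00) are red, and the 7 of Ccnd2 all lie left of 0, from -0.06 to -0.52.

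Over all 24 probe sets, the groups did not overlap on 9 (37.5%), against 30.5% of all probe sets, which is close to the background. Those with deficient arrays higher were the 3 of Cdk6, where 15.4% of all probe sets did so. The 6 with deficient arrays lower were all of D-type cyclins, 4 of Ccnd2 and 1 each of Ccnd1 and Ccnd3, where 15.2% of all probe sets did so. On the brightest probe set of each gene, 2 of 8 did not overlap, Cdk6 higher and Ccnd3 lower, against 35.1% of all genes (16.5% higher and 18.6% lower).

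The wild-type arrays differed from each other in the cyclins, and in opposite directions for the D and E types. On the brightest probe sets, wild type 1 was above wild type 2 by 1.51 for Ccnd1 and 0.59 for Ccnd2. It was below by a Ccne1 difference of -0.92 and a Ccne2 difference of -1.37. Of all genes, 0.26% had a larger gap between the wild-type arrays than Ccnd1, 0.43% than Ccne2, 2.16% than Ccne1 and 7.86% than Ccnd2. Over probe sets, wild type 1 was the higher of the pair on 12 of 13 for D-type cyclins and on 0 of 3 for E-type cyclins. Probe sets of the same gene are not replicates. By gene, on the brightest probe sets, wild type 1 was higher for 3 of 3 D-type and 0 of 2 E-type cyclins. The share over all genes was 48.4%. On their brightest probe sets the kinases and Ccnd3 differed less, with gaps of 0.05 for Cdk6, 0.04 for Ccnd3, -0.18 for Cdk4 and 0.29 for Cdk2. The gap depended on the probe set. The others gave 0.91 and 0.32 for Ccnd3, 0.24 and -0.42 for Cdk6, and 1.53 and 0.13 for Ccnd1. On the brightest probe sets, the deficient arrays lay between the wild-type arrays, on all 3 arrays, for Ccnd1, Ccnd2, Ccne1 and Cdk4.

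On the brightest probe sets of Ccnd1, Ccnd2, Ccne1 and Ccne2, the sign of the difference depended on which wild-type array was used. Against wild type 2 alone, the difference was 0.52 for Ccnd1, 0.23 for Ccnd2, -0.41 for Ccne1 and -0.17 for Ccne2. Against wild type 1 alone, it was -0.99, -0.36, 0.51 and 1.21 for the same genes in that order. None of these passed. Ccnd3 stayed below 0 against either array on its brightest probe set (-0.32 against wild type 2 and -0.36 against wild type 1). Counting every probe set, the sign was the same against both arrays on 7 of 13 for D-type cyclins (2 of 3 for Ccnd1, 4 of 7 for Ccnd2 and 1 of 3 for Ccnd3, all lower in deficient cells) and on 0 of 3 for E-type cyclins. Other genes moved with this gap: 9 of 10 measured genes of the KLS sort and stem cell list were higher in wild type 1, 13 of 14 S phase and proliferation genes and 4 of 4 later cyclins and Cdk1 were higher in wild type 2, as were 7 of 8 CDK activation genes and 9 of 10 granulocyte markers (median gap of the granulocyte list -0.40), and 48.4% of all genes were higher in wild type 1. Their part in the cyclin values was not tested.

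**Figure D3:**
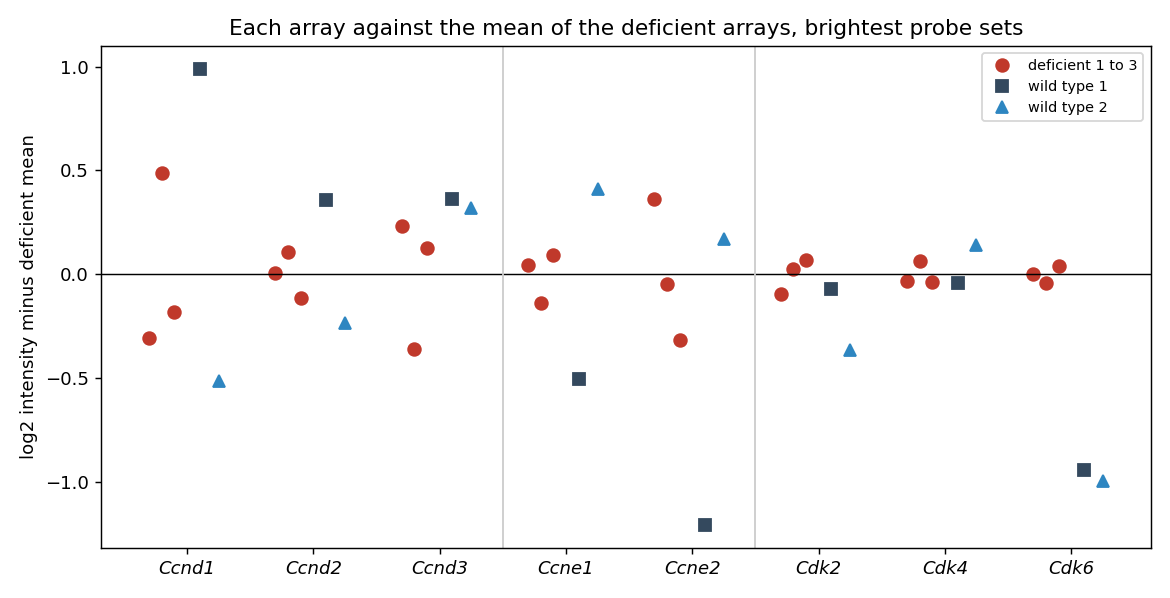
Log2 intensity of each array minus the mean of the deficient arrays, for the brightest probe set of each gene; circles are deficient arrays, the square is wild type 1 and the triangle is wild type 2. The wild-type arrays lie on opposite sides of 0 for Ccnd1 (0.99 and -0.52), Ccnd2, Ccne1, Ccne2 (-1.21 and 0.17) and, within a narrow range, Cdk4, and side by side for Ccnd3 and, at -0.94 and -0.99, for Cdk6.

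The genes whose profile over the 5 arrays lay nearest to that of Cdk6, by root mean square distance between log2 values centred on their own mean, were Zfp39, a zinc finger gene (distance 0.05), Larp1, which encodes an RNA-binding protein that regulates translation (0.06), and Tubd1, which encodes delta-tubulin (0.07), out of 18192 other genes. Larp1 read 10.90, 10.77 and 10.75 in deficient cells, against 9.89 and 9.87 in wild type. The 3 genes differed between the groups by 0.89 to 0.92, close to Cdk6, which follows from picking them by likeness on the same arrays. The other members lay at distances of 0.38 (Cdk2) to 0.80 (Ccnd1) from Cdk6.

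Around the members, the other genes of the pathway were counted with each gene given by its brightest probe set, and rose or fell refers to that fit. Of 7 CDK inhibitor genes, 2 fell and 5 did not pass (list median -0.09, against -0.01 for all genes, of which 0.830% were called higher and 1.41% lower). They were Cdkn1c (p57), which read 5.93, 6.69 and 6.36 in deficient cells, against 8.66 and 7.88 in wild type, and Cdkn1a (p21), at 9.0, 9.24 and 8.84 in deficient cells and 9.86 and 10.20 in wild type. Both proteins inhibit cyclin-bound CDKs. Neither passed once any 1 array was left out (adjusted p from 0.0512 to 0.127 for Cdkn1c and from 0.0734 to 0.135 for Cdkn1a). Adjusted over all probe sets, neither passed (0.0684 for Cdkn1c and 0.0779 for Cdkn1a), and Cdkn1a also missed the threshold under median centring (adjusted p = 0.0523). Cdkn2d (p19), an inhibitor of Cdk4 and Cdk6, differed by -0.29 (adjusted p = 0.343).

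Genes that switch CDKs on or off had 0 of 8 members past the threshold by limma (median 0.27). At an unadjusted p under 0.05 there were 3 of 8, where 18.7% of all genes passed. These were Wee1, an inhibitory kinase of CDKs (difference 0.47, adjusted p = 0.0823), and the activating phosphatase genes Cdc25b (0.89, adjusted p = 0.127) and Cdc25c (0.53, adjusted p = 0.225). Of 10 measured genes of cyclin turnover, 0 passed and 1 had an unadjusted p under 0.05, against 18.7% of all genes (median 0.17). The smallest p-values belonged to Gsk3b, a kinase that marks D-type cyclins for destruction (difference 0.63, adjusted p = 0.200), the ubiquitin ligase subunit gene Skp1 (-0.23, adjusted p = 0.317) and the F-box gene Fbxo4 (-0.74, adjusted p = 0.339).

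The later cyclins and Cdk1 had 0 of 4 measured members past the threshold (median 0.31). At an unadjusted p under 0.05 by limma there were 2 of 4, against 18.7% of all genes. They went in opposite directions, Ccna2 higher and Ccna1 lower in deficient cells. Ccna2, the S and G2 phase cyclin that takes over Cdk2 from E-type cyclins, read 10.48, 10.89 and 10.52 in deficient cells, against 9.67 and 10.13 in wild type (difference 0.73, adjusted p = 0.122). Cdk1, the mitotic kinase, differed by 0.32 (adjusted p = 0.430), and Ccna1, a cyclin known mainly from germ cells, read below the array median on every array and differed by -0.34 (adjusted p = 0.250). Of 10 E2F and DP genes, 2 rose, the atypical repressors E2f8 (1.26) and E2f7 (1.13), and 8 did not pass, among them the activator E2f3 (0.61, adjusted p = 0.0578); the list median was 0.19. With 1 array left out, E2f8 passed in 3 of 5 fits and E2f7 in 0. Adjusted over all probe sets, E2f8 passed (0.0252) and E2f7 did not (0.0588). Of 14 S phase and proliferation genes, Mki67 rose (1.11; it passed in 2 of 5 such fits), 13 did not pass, and all 14 had higher means in deficient cells (median 0.28, against 48.1% of all genes with higher means). Top2a differed by 0.73 (adjusted p = 0.0878) and Rrm2 by 0.52 (adjusted p = 0.136).

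**Figure D4:**
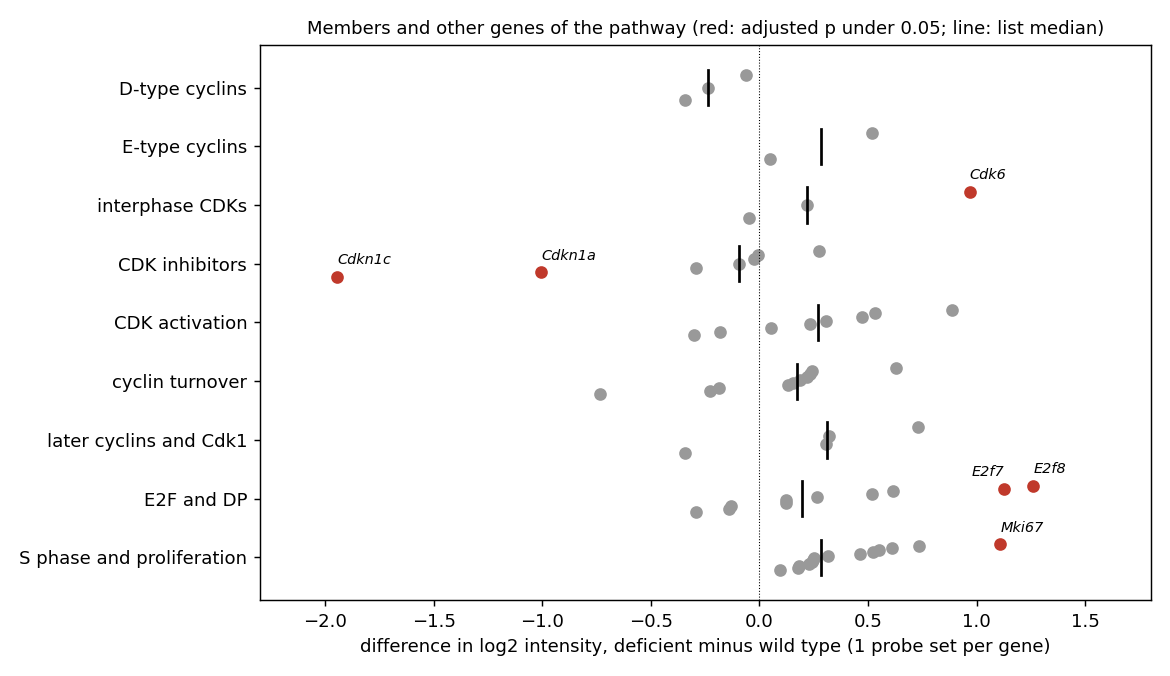
Difference in log2 intensity, deficient minus wild type, of the members and of the other genes of the pathway with 1 probe set per gene; red points passed an adjusted p under 0.05 in the fit of 1 probe set per gene and black lines are list medians. Among the members only Cdk6 (0.97) is red; the other named genes are Cdkn1c (-1.94), Cdkn1a, E2f7, E2f8 and Mki67.

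Among markers of cells other than KLS cells, the granulocyte, B and plasma cell, and macrophage and dendritic cell lists separated the groups in summed intensity. The T and NK cell, megakaryocyte and erythroid lists did not. Of 10 measured granulocyte genes, 9 fell; their summed intensity, on the log2 scale, was 10.38 to 11.20 in deficient cells and 15.60 to 15.89 in wild type, while Itgam lay below the array median on all arrays. Of 9 B and plasma cell genes, 3 fell (summed level 10.21 to 10.32 in deficient cells and 13.96 to 14.82 in wild type), with Pax5 below the median throughout. Of 9 macrophage and dendritic cell genes, 1 fell (11.09 to 11.38 in deficient cells and 12.29 to 12.91 in wild type). By limma, 7 of these 9 had an unadjusted p under 0.05, against 18.7% of all genes. The count was 9 of 10 for granulocyte genes and 6 of 9 for B and plasma cell genes. For T and NK cell genes it was 4 of 9, and for megakaryocyte genes 1 of 6. Means were lower in deficient cells for 8 of 9 macrophage and dendritic cell genes and 9 of 9 B and plasma cell genes. Of 9 T and NK cell genes, 2 fell, with overlapping sums (11.24 to 11.57 in deficient cells and 10.74 to 11.31 in wild type). Nkg7, the brightest, makes up most of these sums and was higher on every deficient array (difference 0.63). Of the 9 genes, 7 had lower means in deficient cells and 2 higher (list median -1.02). Of 10 KLS sort and stem cell genes, 1 fell (Procr), with sums of 13.52 to 13.79 in deficient cells and 13.64 to 13.94 in wild type. By limma, 4 of the 10 had an unadjusted p under 0.05, against 18.7% of all genes. Procr, Mecom (-1.19) and Tek (-0.68) were lower in deficient cells, and Gata2 (0.48) was higher. Of 6 megakaryocyte genes, 1 rose and 5 did not pass, with overlapping sums (12.15 to 12.56 in deficient cells and 12.28 in both wild-type arrays). The one that rose was Itga2b, the integrin CD41, also known from stem and progenitor cells, which read 11.19, 11.36 and 11.58 in deficient cells, against 10.18 and 10.20 in wild type (difference 1.19, adjusted p = 0.0219). It passed in 1 of 5 fits with an array left out. Of 6 erythroid genes, 0 passed by limma and 0 had an unadjusted p under 0.05, with sums of 9.36 to 12.59 in deficient cells and 11.69 and 12.22 in wild type. Adjusted over all probe sets, 8 granulocyte, 2 B and plasma cell, 1 T and NK cell and 1 megakaryocyte gene passed, and 0 of the macrophage and dendritic cell, KLS sort and erythroid genes. The part of these cells in the Cdk6 difference was not tested.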

How the data were processed

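Total RNA of sorted KLS cells was extracted with Trizol, labelled with biotin and hybridised to Affymetrix arrays with 1 colour, as the labels' protocols state. The authors made the deposited intensity values with RMA, per the submitters' processing notes; its software version is not given in the sources used here. RMA forces the arrays to a common distribution, so a shift of all transcripts would not be seen. The deposited intensities are linear, and log2 was taken here. Precision is limited by how few arrays there are, and read depth has no meaning here.

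Gene names came from the platform annotation held by GEO (34945 with 1 symbol, 932 with several, 9160 with none), and 64 AFFX controls were left out. Deficient and wild-type cells were compared by limma 3.58.1 (R 4.3.3; lmFit and eBayes, two-sided) on all 5 arrays without covariates, with Benjamini-Hochberg adjustment over 45037 probe sets and a threshold of 0.05; another fit used the probe set with the highest mean per gene (18193 genes). The text names all members, the targeted genes, up to 3 genes of each pathway list with the smallest p, and the 3 profiles nearest to a called member. Members and lists were chosen with earlier results of these data known. List genes without a probe set of their own symbol were not analysed here. The code was tested on simulated data, with 100 probe sets changed by 1 log2 unit and 100 by 2. It recovered 22% of the changes of 1 unit and 85% of those of 2. Of 118 calls, 11 were false. Most changes of 1 unit were thus missed there. Alternatives were other normalizations, filters, variance models, the replicate number as a block and each array left out.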

Additional observations from a re-analysis of the deposited data

How the results depend on the processing

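The rise of Cdk6 kept its direction and its call under 8 of 9 settings other than leaving out an array (difference 0.88 to 0.98), namely other normalizations, filters, an intensity trend, array weights and the mean of its probe sets. The exception was the fit with the replicate number as a block, where it read 0.95 (adjusted p = 0.193), 0 member probe sets and 0 members passed, and 15 probe sets passed in all, against 221 without the block. Cdkn1a, Cdkn1c, E2f7, E2f8, Mki67, Procr and Itga2b did not pass under the block either (adjusted p from 0.0695 to 0.175). The numbers pair only 2 arrays with 2, their deviations correlated at -0.05 and -0.02, and that fit has fewer residual degrees of freedom. Quantile normalization again and cyclic loess each left 1 member probe set past the threshold in place of 2 (1455287_at of Cdk6 had adjusted p = 0.0545 and 0.0559). An intensity trend called 401 probe sets, 141 higher and 260 lower. Averaging the probe sets of Ccnd3 turned its difference to 0.0851 (adjusted p = 0.853), since its other 2 probe sets differ the other way.

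With each array left out in turn, 23 to 78 probe sets, 0 member probe sets and 0 members passed. The differences then ran from -0.99 to 0.52 for Ccnd1, -0.36 to 0.23 for Ccnd2, -0.46 to -0.16 for Ccnd3, -0.41 to 0.51 for Ccne1, -0.17 to 1.21 for Ccne2, 0.07 to 0.36 for Cdk2, -0.14 to 0.0414 for Cdk4 and 0.94 to 0.99 for Cdk6. The sign turned without wild type 1 for Ccnd1, Ccnd2, Ccne1 and Ccne2, and without wild type 2 for Cdk4; the cause was not tested. Fewer arrays leave fewer residual degrees of freedom, and with 1 wild-type array left, that array is assumed to vary like the others. Leaving out dim probe sets dropped the brightest probe set of no member. Leaving out those ending in _x_at or _s_at dropped that of Ccnd2, Ccne1 and Cdk4, whose next probe sets differed by -0.09, 0.09 and -0.08 and did not pass. The small number of arrays limits every interval here, most of all for Ccnd1 and Ccne2.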
